A study of Rattus norvegicus with 16 samples.

Results

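Bulk RNA-Seq of whole kidney was used to follow 7 genes of the fibrillar collagens and of the assembly and turnover of their matrix. They were chosen as 7 Ensembl identifiers, given with the symbols Col1a1, Col1a2, Col3a1, Fn1, Sparc, Mmp2 and Lox, out of 32623 in the deposited tables. All 7 were among the 14628 genes that passed the filter on low counts. The 16 libraries came from Sprague-Dawley rats, male per the methods, in 4 groups of 4. Control rats were sham operated, received sesame oil and drank tap water. DOCA rats had 1 kidney removed and received deoxycorticosterone acetate (DOCA, an ester of a mineralocorticoid hormone) with salt in the drinking water. Finerenone and Spironolactone rats were DOCA rats that also received the nonsteroidal or the steroidal blocker of the mineralocorticoid receptor, at doses that differed. Each comparison with control therefore covers the operation, DOCA and salt together. It also covers daily gavage, of vehicle in DOCA rats or of the drug, which the methods do not describe for control rats. The labels give an age of 6 weeks for every library, and the study uses the same length of time for the treatment.

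Interstitial fibrosis is the build-up of matrix between the tubules of the kidney. Type I collagen, made of chains from Col1a1 and Col1a2, and type III collagen, from Col3a1, form its fibrils, and fibronectin (Fn1) is laid down as a scaffold on which collagen assembles. Sparc, a secreted glycoprotein, binds collagen and takes part in its deposition, Lox cross-links the fibrils, and Mmp2 is a gelatinase that degrades collagen.

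The files pair no identifier with a symbol. Symbols were tied to identifiers by matching expression values listed by symbol in a supporting table of the study, which gave 1996 symbols exactly 1 identifier each. In this way ENSRNOG00000003897 was tied to Col1a1, ENSRNOG00000003357 to Col3a1, ENSRNOG00000014288 to Fn1, ENSRNOG00000012840 to Sparc, ENSRNOG00000016695 to Mmp2 and ENSRNOG00000014426 to Lox. ENSRNOG00000011292, given as Col1a2, was not tied to any symbol and is reported by its identifier alone. The supporting table lists genes that the study called between DOCA and control on these libraries, and it was held here only in part, so other genes could not be named. Of the 1996 tied genes 1878 were higher in DOCA, and the counts of other named genes below are not independent evidence of that direction.

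The libraries held 7063146 to 8056935 counts, and Spironolactone replicate 4 held 10932887. Levels are given as CPM, counts relative to the library total after TMM, a scaling for library composition, and 3 counts were worth 0.247 to 0.485 CPM. A pair of libraries, DOCA replicate 4 and Spironolactone replicate 4, was missing from the supporting values, and the study names 1 outlier in each of those groups. Both stayed out of the fit of 14 libraries, and results that rest on them are given with and without them. The epithelial sodium channel subunits Scnn1a and Scnn1b were present in all 16 libraries, which alone does not identify the tissue. Scnn1a lay between 15.6 and 51.7 TPM (a level scaled for gene length and library total), and Scnn1b lay between 15.7 and 34.8 TPM.

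Promoter sequence was available for Sparc, and it is shown beside those of Col6a1 and Timp1, whose profiles over the libraries were among the 8 nearest to the mean profile of the 7 genes (below). Each run holds the 250 bases before the RefSeq gene start in build GRCr8, read along the gene's strand, with capitals marking matches to any of 5 motifs on either strand. The motifs, spelled out after the sequences, were a TATA box, a CCAAT box, a GC box, an AP-1 site and a single arm of a steroid receptor element, and none of them contains another.
Sparc, chr10:40038817-40039066, minus strand: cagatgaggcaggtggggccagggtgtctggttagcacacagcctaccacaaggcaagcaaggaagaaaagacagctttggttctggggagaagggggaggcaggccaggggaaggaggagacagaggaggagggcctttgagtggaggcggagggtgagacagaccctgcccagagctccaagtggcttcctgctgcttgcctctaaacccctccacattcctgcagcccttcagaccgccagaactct
Col6a1, chr20:11905440-11905689, plus strand: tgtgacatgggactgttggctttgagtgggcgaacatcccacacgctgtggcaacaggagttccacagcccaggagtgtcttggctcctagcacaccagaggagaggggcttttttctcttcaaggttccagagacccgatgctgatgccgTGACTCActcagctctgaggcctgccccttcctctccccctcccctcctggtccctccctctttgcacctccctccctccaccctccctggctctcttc
Timp1, chrX:3771123-3771372, minus strand: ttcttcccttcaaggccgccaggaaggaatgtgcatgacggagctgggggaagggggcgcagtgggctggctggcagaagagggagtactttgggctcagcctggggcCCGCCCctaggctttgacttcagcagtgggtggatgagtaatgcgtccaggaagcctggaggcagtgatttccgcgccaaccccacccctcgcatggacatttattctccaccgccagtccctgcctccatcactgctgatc

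The Sparc window held 0 matches to the 5 motifs. The AP-1 site was searched as TGANTCA. It occurred once in the Col6a1 window with its first base at -99, and in 6.3% of all 33469 promoters of the same length. The GC box was searched as GGGCGG. It occurred once in the Timp1 window, on the opposite strand at -142, and in 30.5% of all promoters. None of the 3 windows held the TATA box, searched as TATAAA and present in 12.9% of all promoters. Nor did they hold the letters CCAAT, which 34.0% of all promoters had. The receptor element arm was searched as AGAACA, was in none of the 3 windows and was in 17.5% of all promoters. Windows of Fbn1, Nlgn2 and Rftn1, also among the 8 nearest, were available and are not shown. Fbn1 held 0 matches to the 5 motifs, Nlgn2 held 3 and Rftn1 held 2, all to the GC box. These matches describe letters in a window and no binding was measured here.

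Col1a1 encodes the alpha 1 chain of type I collagen. Its level was 47.3, 53.4, 38.9 and 93.8 CPM in the 4 control libraries. In DOCA it was 329, 317 and 342 CPM in the libraries of the fit and 674 CPM in replicate 4. Every DOCA library lay above every control library, and replicate 4 stood far above the other 3. Finerenone libraries held 171, 168, 159 and 154 CPM, a narrow band between both groups that overlapped neither. Spironolactone libraries held 294, 403 and 277 CPM, with 241 CPM in the left-out replicate 4, and overlapped the DOCA libraries.

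Col3a1, the chain of type III collagen, was the more abundant fibrillar collagen. Control libraries held 89.5, 126, 83.0 and 142 CPM of it. DOCA libraries held 571, 521 and 656 CPM, and 987 CPM in replicate 4, with no overlap with control. All 4 Finerenone values, 279, 272, 269 and 256 CPM, lay above control and below DOCA. Under spironolactone the values were 549.9, 744 and 483 CPM, and 394 CPM in replicate 4, across the DOCA range and below it.

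Fn1 encodes fibronectin. It was measured at 42.0, 39.9, 45.5 and 57.9 CPM in control and at 298, 269 and 342 CPM in DOCA, with 589 CPM in DOCA replicate 4. No control library came near a DOCA library. The Finerenone libraries, at 109, 136, 145 and 125 CPM, again overlapped neither group. The Spironolactone libraries, at 277, 399 and 245 CPM with 299.5 CPM in replicate 4, overlapped DOCA.

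Lox, the lysyl oxidase that oxidizes lysines of collagen and elastin so that the fibers cross-link, was the least abundant of the 7. It stood at 2.83, 5.86, 3.97 and 7.44 CPM in control, 18 to 46 counts per library. In DOCA it stood at 31.8, 33.2 and 35.4 CPM, with 68.8 CPM in replicate 4. These groups did not overlap. Finerenone libraries held 10.4, 12.6, 9.18 and 13.3 CPM, all above the highest control value. Spironolactone libraries held 35.3, 42.8 and 31.3 CPM, and 22.8 CPM in replicate 4, around the DOCA values.

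Sparc was the most abundant member and spread the least between groups. Control libraries held 406, 379, 355 and 494 CPM, and DOCA libraries 726, 676, 689 and, in replicate 4, 915 CPM. The groups did not overlap. Finerenone libraries held 544, 671, 415 and 553 CPM. That range overlapped control but not DOCA. Spironolactone libraries held 779.9, 702 and 742 CPM, with 605 CPM in replicate 4.

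Mmp2, which degrades denatured and basement membrane collagen, was at 20.6, 27.4, 21.3 and 28.1 CPM in control. DOCA libraries were at 49.5, 57.6 and 76.8 CPM, with 101 CPM in replicate 4, all above control and widely spread. Finerenone values of 39.2, 37.4, 42.4 and 45.1 CPM fell in the gap between control and DOCA. Spironolactone values of 63.0, 54.0, 67.3 and, in replicate 4, 53.1 CPM fell within the DOCA range.

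**Figure D1:**
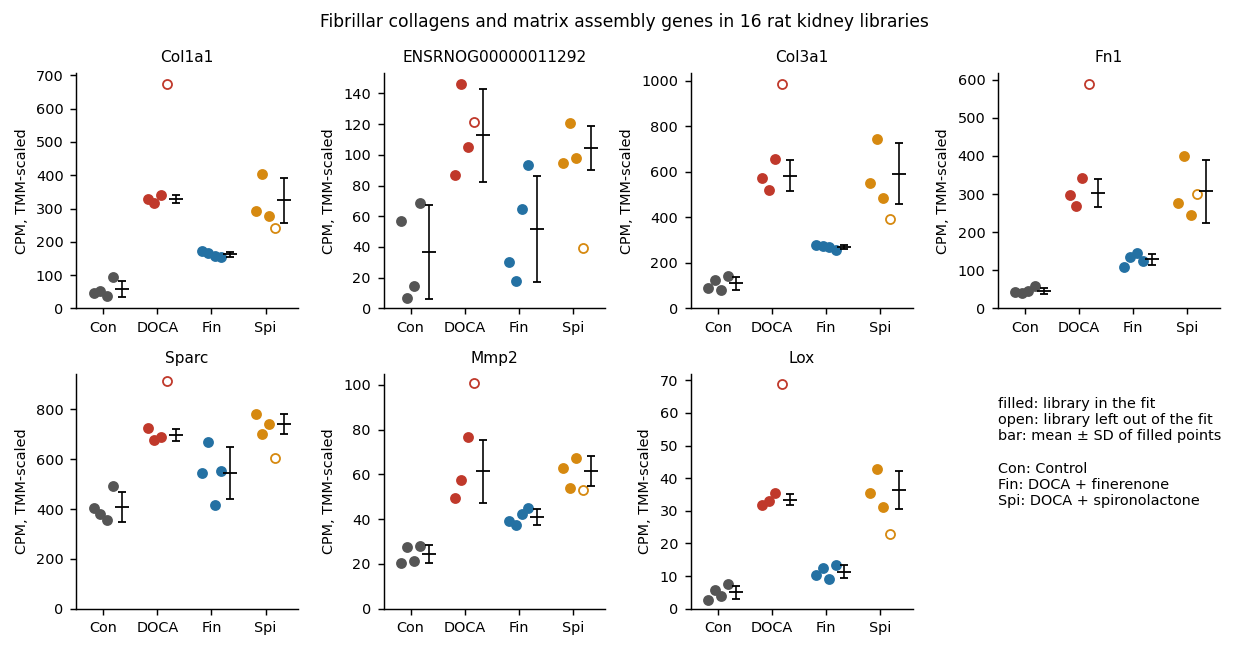
CPM on the TMM scale (vertical axis, from 0) of each of the 7 genes in each library (points), by group, with the mean ± SD of the libraries in the fit (n = 4, 3, 4 and 3) beside them. Open points are the 2 left-out libraries. For Col1a1, all DOCA libraries lie at 317 CPM or more, all Finerenone libraries lie between 154 and 171 CPM, and all control libraries lie at 93.8 CPM or less, while the points of ENSRNOG00000011292 run from 6.81 to 68.4 CPM in control and from 17.8 to 93.5 CPM under finerenone.

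ENSRNOG00000011292 differed from the other 6 in its spread within the control and Finerenone groups. Control libraries held 56.6, 6.81, 14.8 and 68.4 CPM. DOCA libraries held 86.7, 146, 105 and, in replicate 4, 121 CPM. Finerenone libraries held 30.0, 17.8, 64.9 and 93.5 CPM, from within the control range to within the DOCA range. Spironolactone libraries held 94.5, 121 and 98.1 CPM, and 39.4 CPM in replicate 4.

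Its estimated counts were fractional in all 16 libraries, whereas those of the other 6 genes were whole in every library. Of 1987 other identifiers with a fractional count, only ENSRNOG00000052925 gave a whole sum with it in 16 of 16 libraries (tolerance 0.015 counts), and the next best did so in 3 of 16. The share of that sum held by ENSRNOG00000011292 ran from 8.27% in control replicate 2 to 88.6% in control replicate 1, within a single group. The 2 identifiers thus shared reads, and the split between them varied by library. The sum was less spread than ENSRNOG00000011292 alone, relative to its mean, in control, under finerenone and, without replicate 4, in DOCA. It was more spread in DOCA with replicate 4 and in the Spironolactone libraries of the fit. The sum was 406, 520, 407 and 661 counts in control, 2271, 1838, 2619 and 3595 counts in DOCA, 969, 866, 1164 and 828 counts under finerenone and 2127, 3109, 1845 and 2422 counts under spironolactone. As CPM, the control sum was 77.7 ± 22.1 (SD, n = 4) and the DOCA sum 263 ± 29.5 (SD, n = 3). Finerenone libraries averaged 135 ± 11.4 (SD, n = 4) and Spironolactone libraries 278 ± 62.9 (SD, n = 3).

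**Figure D2:**
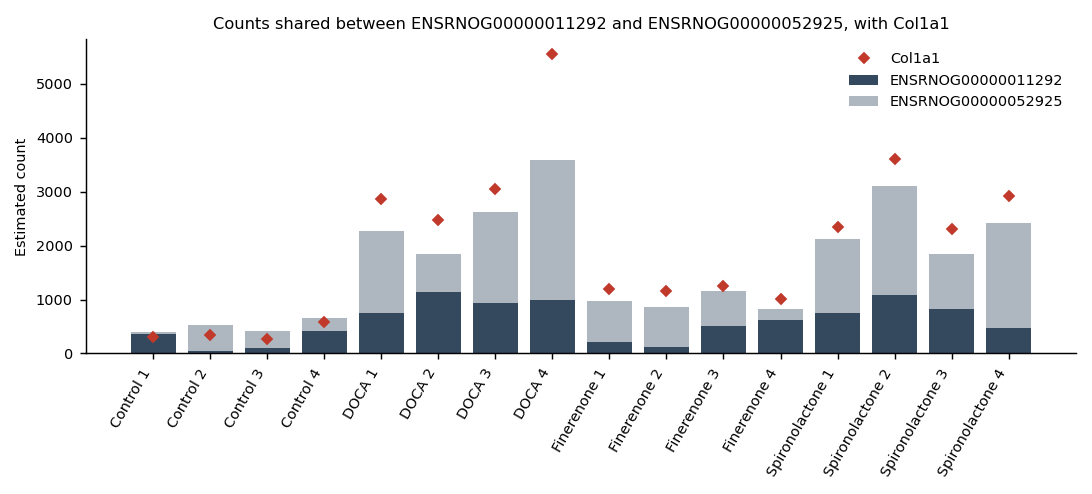
Estimated counts (vertical axis) of ENSRNOG00000011292 (dark bars) and ENSRNOG00000052925 (light bars, stacked on them) in each of the 16 libraries, with the count of Col1a1 (diamonds). The division of the bars changes from library to library, from 8.27% to 88.6% of the stack in control alone, while the whole stack runs from 406 to 661 counts in control and from 1838 to 3595 counts in DOCA.

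The first comparison asked what DOCA with salt and uninephrectomy changed. The 2 fibrillar collagens that could be named, fibronectin and lysyl oxidase rose 5.29- to 6.67-fold, Mmp2 rose 2.52-fold and Sparc rose 1.71-fold. Calls required a log2 fold change of 0.5 or more in either direction and, after Benjamini-Hochberg adjustment over all tested genes, a p under 0.05. In DOCA compared with control 6 of the 7 genes were called higher, where 15.4% of all tested genes were. These 6 are the genes tied to a symbol, through a table of genes that the study called between DOCA and control on these libraries. Their calls therefore repeat that table and are not independent evidence. Of the 1996 tied genes 77.0% were called higher. All 7 had no overlap between the groups, as did 21.9% of all genes in that direction. In whole tissue, a change in the number of cells of a type and a change in RNA per cell cannot be told apart.

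Lox had the highest estimate, at a log2 fold change of 2.74 ± 0.22 (SE; adjusted p = 1.80e-07). Fn1 rose by 2.71 ± 0.17 on the log2 scale (adjusted p = 4.72e-08), that is 6.54-fold. Col1a1 rose 5.65-fold, with a log2 fold change of 2.50 ± 0.23 (adjusted p = 4.87e-06). Col3a1 rose 5.29-fold, with a log2 fold change of 2.40 ± 0.18 (adjusted p = 2.26e-07). The 95% intervals of these 4 overlapped, and their order was not tested. Mmp2 followed at 1.33 ± 0.15 (adjusted p = 2.78e-06) and Sparc at 0.77 ± 0.13 (adjusted p = 0.000184). The 95% intervals of Mmp2 (1.01 to 1.66) and Sparc (0.48 to 1.06) lay below those of the 4 others, of which the lowest bound was 1.98 for Col1a1.

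ENSRNOG00000011292 alone had a log2 fold change of 1.63 ± 0.70 between DOCA and control and was not called (adjusted p = 0.0972). Its partner ENSRNOG00000052925 was called at 1.88 ± 0.61 (adjusted p = 0.0352). With both summed into 1 row before the fit, a choice made after the data were seen, the log2 fold change was 1.76 ± 0.19 (adjusted p = 6.44e-06), a 3.39-fold rise. With all 16 libraries in the fit the 6 called genes stayed called, at log2 fold changes of 0.88 for Sparc to 3.07 for Lox, and ENSRNOG00000011292 was at 1.65 ± 0.65 (adjusted p = 0.0629).

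The second comparison asked what finerenone changed in DOCA rats. Lox fell 2.95-fold, Fn1 fell 2.35-fold, Col3a1 fell 2.16-fold, Col1a1 fell 2.02-fold and Mmp2 fell 1.49-fold. In all, 5 of the 7 genes were called lower, where 7.70% of all tested genes were. For 6 of 7 the Finerenone libraries lay below all DOCA libraries without overlap, as for 16.5% of all genes. No member was called higher.

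The log2 fold change of Lox was -1.56 ± 0.20 (adjusted p = 4.31e-05), that of Fn1 was -1.23 ± 0.16 (adjusted p = 8.24e-05) and that of Col3a1 was -1.11 ± 0.17 (adjusted p = 0.000378). Col1a1 was at -1.01 ± 0.22 (adjusted p = 0.00698). Mmp2 was at -0.58 ± 0.14 (adjusted p = 0.00822), close to the minimum fold, and without DOCA replicate 3, its highest library in the fit, it was at -0.38 and no longer called. Sparc was at -0.35 ± 0.13 and was not called (adjusted p = 0.0645). ENSRNOG00000011292 was at -1.13 ± 0.69 with an adjusted p of 0.282, and its sum with ENSRNOG00000052925 was at -0.97 ± 0.18 (adjusted p = 0.00210). With all 16 libraries the same 5 genes were called, at -0.79 for Mmp2 to -1.90 for Lox. With libraries of a shared first code number summed, Col1a1 was at -1.02 and not called.

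Finerenone libraries also remained above control. Compared with control, 5 of the 7 genes were called higher under finerenone, where 3.33% of all tested genes were, and 5 of 7 did not overlap, as did 6.19% of all genes in that direction. Col1a1 was 2.80-fold higher (log2 fold change 1.48 ± 0.22, adjusted p = 0.00241) and Fn1 was 2.78-fold higher (1.47 ± 0.16, adjusted p = 0.000200). Col3a1 was 2.45-fold higher, Lox 2.26-fold and Mmp2 1.69-fold. Sparc had a log2 fold change of 0.42 ± 0.12 and was not called (adjusted p = 0.0536), but was called at 0.52 without control replicate 4 and at 0.56 without Finerenone replicate 3. Lox was no longer called with all 16 libraries (log2 fold change 1.18 ± 0.33, adjusted p = 0.0621). The summed pair was called at 0.79 ± 0.18 (adjusted p = 0.0174), and not with all 16 libraries (adjusted p = 0.0609). When libraries that share the first number of their label code were summed into 1, which left fewer samples per group, 2 of the 7 were called, Col3a1 and Fn1.

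As a description of where the Finerenone mean lay between control and DOCA on the log2 scale, 43.0% of the DOCA rise was left for Lox, 53.7% for Col3a1, 54.2% for Sparc, 54.4% for Fn1, 56.5% for Mmp2 and 59.4% for Col1a1. Leaving out any library of the fit moved these values between 38.7% and 66.3%, apart from Sparc, which ran from 39.3% to 71.9%. For the summed pair of identifiers 45.0% was left. All these shares are from the 14 libraries of the fit. With all 16 libraries the DOCA rises were larger, at log2 fold changes of 3.07 for Lox, 3.01 for Fn1, 2.83 for Col1a1 and 2.63 for Col3a1. Finerenone against control stayed at 1.18, 1.47, 1.48 and 1.29 for these genes, so smaller shares were left. Mmp2 (1.55 and 0.75) and Sparc (0.88 and 0.42) moved the same way.

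**Figure D3:**
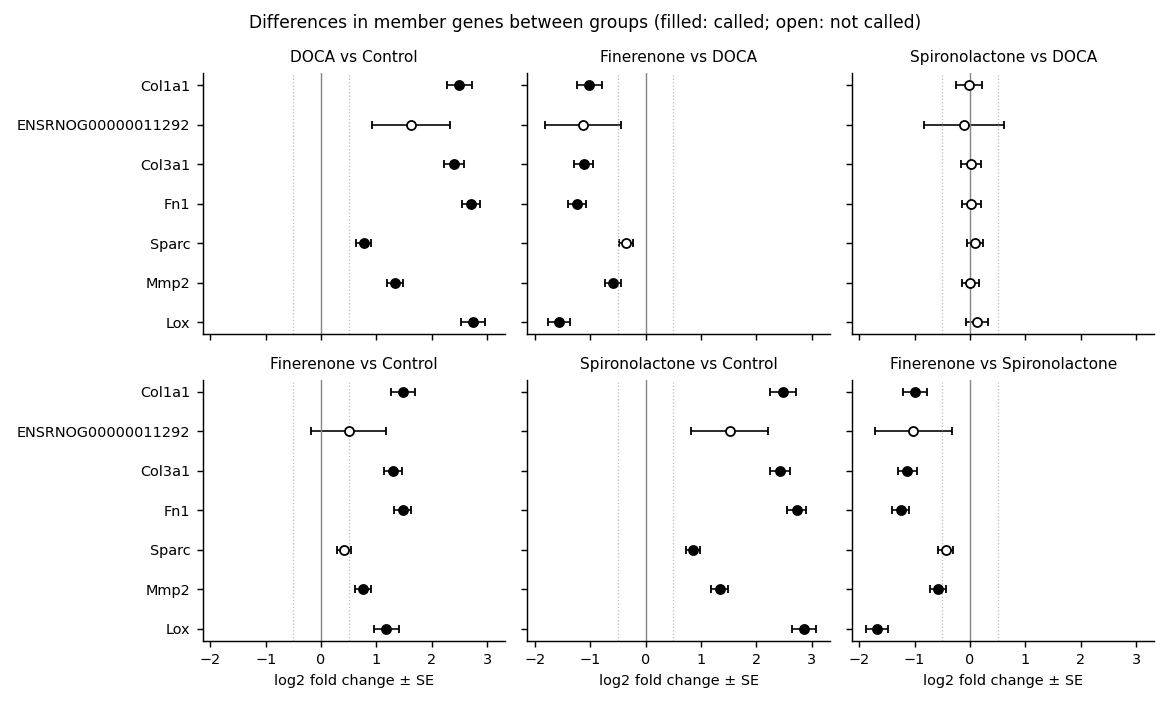
Log2 fold change ± SE (horizontal axis) of each gene in the 6 comparisons between groups, from 1 edgeR fit of 14 libraries. Filled points were called, open points were not, and dotted lines mark the minimum fold of 0.5. The 4 largest rises in DOCA, from 2.40 to 2.74, stand at -0.02 to 0.12 for spironolactone against DOCA and at -1.01 to -1.56 for finerenone against DOCA.

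The third comparison asked what spironolactone, at its own dose, changed in DOCA rats. None of the 7 genes was called by edgeR (adjusted p = 0.99957 for each, and 0 of 7 at an unadjusted p under 0.05), and DESeq2, limma-voom and both limma fits on TPM also called 0 of 7. Over all tested genes the calls were 0.00%, with 578 genes at an unadjusted p under 0.05 and 11 calls by DESeq2. The 95% intervals of the log2 difference were -0.56 to 0.51 for Col1a1, -0.38 to 0.43 for Col3a1, -0.36 to 0.40 for Fn1, -0.32 to 0.57 for Lox, -0.34 to 0.34 for Mmp2 and -0.23 to 0.40 for Sparc. The interval of ENSRNOG00000011292 was wider, from -1.73 to 1.51. The libraries overlapped for all 7 genes, so 0 of 7 stood apart, where 10.6% of all genes did.

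The left-out libraries moved these small differences down. Adding back DOCA replicate 4 alone turned the sign for Col3a1, Fn1, Sparc, Mmp2 and Lox, while Col1a1 and ENSRNOG00000011292 were below 0 with and without it. With all 16 libraries the log2 fold changes under spironolactone were -0.45 ± 0.27 for Col1a1, -0.36 ± 0.26 for Lox, -0.33 ± 0.22 for Col3a1, -0.29 ± 0.21 for Fn1, -0.26 ± 0.17 for Mmp2 and -0.09 ± 0.14 for Sparc. None was called, with adjusted p values from 0.878 to 0.943. DOCA replicate 4 was the highest and Spironolactone replicate 4 the lowest library of its group for Col1a1, Col3a1, Sparc, Mmp2 and Lox.

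Compared with control, Spironolactone libraries had 6 of the 7 genes called higher, where 14.7% of all tested genes were, and 7 of 7 without overlap (6 with all 16 libraries), as for 20.6% of all genes. The log2 fold changes were 2.86 ± 0.22 for Lox, 2.73 ± 0.17 for Fn1, 2.48 ± 0.23 for Col1a1, 2.43 ± 0.18 for Col3a1, 1.34 ± 0.15 for Mmp2 and 0.86 ± 0.13 for Sparc. Adjusted p values of these 6 ran from 4.27e-08 for Fn1 to 7.20e-05 for Sparc. The summed pair was called at 1.84 ± 0.19 (adjusted p = 5.24e-06).

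Finerenone and Spironolactone rats received different doses, so their difference is one between these 2 groups as dosed. Under finerenone 5 of the 7 genes were called lower than under spironolactone, where 6.84% of all tested genes were, and 7 of 7 did not overlap (5 with all 16 libraries), as for 14.3% of all genes. The log2 difference was -1.69 ± 0.20 for Lox, -1.25 ± 0.16 for Fn1, -1.14 ± 0.17 for Col3a1, -0.99 ± 0.22 for Col1a1 and -0.58 ± 0.14 for Mmp2, with adjusted p values from 3.54e-05 for Lox to 0.00935 for Mmp2. Mmp2 was not called with DOCA replicate 4 added back (adjusted p = 0.0556), and with all 16 libraries it was at -0.53 (adjusted p = 0.0487). Col1a1 was not called without Spironolactone replicate 2, its highest library in that group, at -0.81. Sparc was at -0.44 ± 0.13 (adjusted p = 0.0259), under the minimum fold, and was called without Finerenone replicate 2, at -0.56. The summed pair was called at -1.05 ± 0.18 (adjusted p = 0.00159). With libraries of a shared first code number summed, 3 of the 7 were called.

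The scale of the values mattered for their size but not for the direction of the called genes. DOCA libraries had higher TMM factors than control libraries. Without TMM, on library size alone, the median of all genes moved to 0.37 in DOCA against control and to -0.29 in finerenone against DOCA on the log2 scale. On that scale 31.0% of all tested genes were called higher in DOCA, 90.2% of the calls were higher rather than 57.6%, and 7 of the 7 genes were called. Relative to that median, the members stood at 2.71 for Lox, 2.69 for Fn1, 2.48 for Col1a1, 2.39 for Col3a1, 1.31 for Mmp2 and 0.75 for Sparc in DOCA against control. In finerenone against DOCA they stood at -1.53 for Lox, -1.20 for Fn1, -1.08 for Col3a1, -0.98 for Col1a1, -0.55 for Mmp2 and -0.33 for Sparc relative to it, and 20.1% of all tested genes were called lower.

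Levels can be set beside each other between genes only per length, as TPM. ENSRNOG00000011292 is left out of the order, since its reads were shared. In control Sparc was at 191 ± 28.1 TPM (SD, n = 4), followed by Col3a1 at 20.7 ± 5.30, Col1a1 at 8.89 ± 3.76, Mmp2 at 7.34 ± 1.22, Fn1 at 4.98 ± 0.972 and Lox at 1.01 ± 0.417 TPM. Col1a1 and Mmp2 did not differ there beyond their spread. In DOCA Sparc was at 467 ± 36.9 TPM (SD, n = 3), Col3a1 at 157 ± 23.3, Col1a1 at 71.9 ± 5.73, Fn1 at 46.3 ± 7.13, Mmp2 at 26.4 ± 6.205 and Lox at 9.65 ± 0.655 TPM. Fn1 thus passed Mmp2 in that order. Under finerenone the levels were 276 ± 31.2 TPM for Sparc, 55.4 ± 5.30 for Col3a1, 27.1 ± 2.35 for Col1a1, 15.035 ± 2.49 for Fn1, 13.5 ± 1.87 for Mmp2 and 2.44 ± 0.272 for Lox (SD, n = 4). Fn1 and Mmp2 overlapped there. Under spironolactone (SD, n = 3) they were 496 ± 12.5, 161 ± 40.7, 71.5 ± 16.8, 47.4 ± 13.7, 26.5 ± 2.42 and 10.5 ± 1.90 TPM in the order of the DOCA levels. The 7 genes with ENSRNOG00000052925 added held 225 to 313 TPM per library in control, 765 to 1200.3 TPM in DOCA, 398 to 439 TPM under finerenone and 692 to 990 TPM under spironolactone, all 16 libraries included.

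Ratios to Col1a1 within a library, which no scaling between libraries can move, showed how unequal the changes were. Sparc was 16.2 to 28.2 times as high as Col1a1 in TPM in control, 4.16 to 6.73 times in DOCA, 8.05 to 12.32 times under finerenone and 5.35 to 8.14 times under spironolactone. The Sparc ratio in the fit libraries differed between DOCA and control by -1.80 on the log2 scale (exact permutation p = 0.0286, the smallest that 3 against 4 libraries can give). The Mmp2 ratio was 0.593 to 1.08 in control and 0.296 to 0.444 in DOCA. Col3a1 kept to 1.87 to 2.91 times Col1a1 in control and 1.81 to 2.37 times in DOCA. Its difference in log2 ratio between these groups, -0.15, was smaller than the spread between control libraries (SD 0.28). The Lox ratio was 0.131 to 0.137 in DOCA and 0.0754 to 0.113 under finerenone, with a log2 difference of -0.58 in the fit libraries (exact 2-sided permutation p = 0.0571). Of 36 such ratio tests none passed the correction, and the smallest adjusted p was 0.187. The exact permutation test cannot give a p under 0.1 for 3 against 3 libraries, or under 0.0286 for the other pairs. Over 36 tests the correction could therefore hardly be passed, and its outcome says little of the ratios. In counts, Col1a1 was 0.648 to 0.877 times the summed pair ENSRNOG00000011292 and ENSRNOG00000052925 in control and 1.16 to 1.54 times in DOCA.

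Other matrix genes were followed in the same fit. Of 93 genes in 5 lists of collagens, collagen processing, matrix glycoproteins, proteases with their inhibitors, and matrix receptors, 54 were tied to an identifier and all were tested. In DOCA 52 of the 54 were called higher, with a median log2 fold change of 1.41 against 0.02 over all genes, in a set of names drawn from genes the study called there. Over all 1996 tied genes 77.0% were called higher there, with a median of 0.80. Under finerenone 36 of the 54 were called lower than in DOCA, where 7.70% of all tested genes and 37.3% of the tied genes were. The median was -0.69, against -0.03 over all genes and -0.51 over the tied genes, and none was called higher. Spironolactone against DOCA gave 0 calls among the 54 and a median of 0.05, against 0.01 over all genes. Because the named genes were selected for their rise in DOCA, these shares say nothing of matrix genes left unnamed.

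Among other collagens 12 of 18 were tied to an identifier, all 12 were called higher in DOCA and 10 were called lower under finerenone. Col4a1 and Col4a2, the chains of basement membrane collagen, rose in DOCA by 1.54 ± 0.16 and 1.63 ± 0.14 on the log2 scale and fell under finerenone by 0.60 ± 0.15 and 0.88 ± 0.14. Col18a1, another basement membrane collagen, and Col6a2, of microfibrillar collagen VI, rose by 1.04 and 1.27 and were not called under finerenone, at -0.45 and -0.48. For collagen processing and cross-linking 9 of 20 were tied, 9 rose in DOCA and 5 fell under finerenone. Serpinh1, the collagen chaperone, was at 0.65 ± 0.21 in DOCA and at -0.31 ± 0.21, not called, under finerenone. Pcolce, an enhancer of procollagen cleavage, was at 0.99 ± 0.19 and at -0.52 ± 0.18, the latter not called. Loxl1, a paralog of Lox, rose by 1.50 ± 0.17 and fell by 0.67 ± 0.16, and Plod2, a lysyl hydroxylase, rose by 1.69 ± 0.13 and fell by 1.10 ± 0.13.

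Of 26 glycoproteins and proteoglycans 16 were tied, all 16 rose in DOCA and 12 fell under finerenone. The proteoglycans Dcn and Bgn rose by 2.19 ± 0.17 and 0.98 ± 0.11. Dcn fell by 0.69 ± 0.17 under finerenone, whereas Bgn was at -0.42 ± 0.11 and under the minimum fold. Nid1, a basement membrane linker, rose by 0.62 and fell by 0.55, and Efemp2, which takes part in elastic fiber assembly, rose by 1.14 and fell by 0.59. Eln, the elastin gene, was singled out after its values were seen. It rose by 1.36 ± 0.25 in DOCA and was at 0.09 ± 0.23 under finerenone against DOCA (adjusted p = 0.814). Of 16 proteases and inhibitors 7 were tied, 7 rose and 5 fell. Adamts1, a matrix protease, rose by 2.99 ± 0.23 and fell by 1.14 ± 0.22. The inhibitor Timp1 rose by 2.92 ± 0.25 and fell by 1.50 ± 0.23, while Timp2 rose by 0.63 and was not called under finerenone, at -0.47. Of 13 matrix receptors 10 were tied, 8 rose and 4 fell. Itgb1, the shared integrin subunit, and the collagen receptor Ddr1 rose by 0.51 and 0.64 and were under the minimum fold for finerenone, at -0.47 and -0.34. Itgb6 rose by 0.54 and was not called under finerenone, at -0.43, and the hyaluronan receptor Cd44 rose by 3.03 ± 0.25 and fell by 1.14 ± 0.22.

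**Figure D4:**
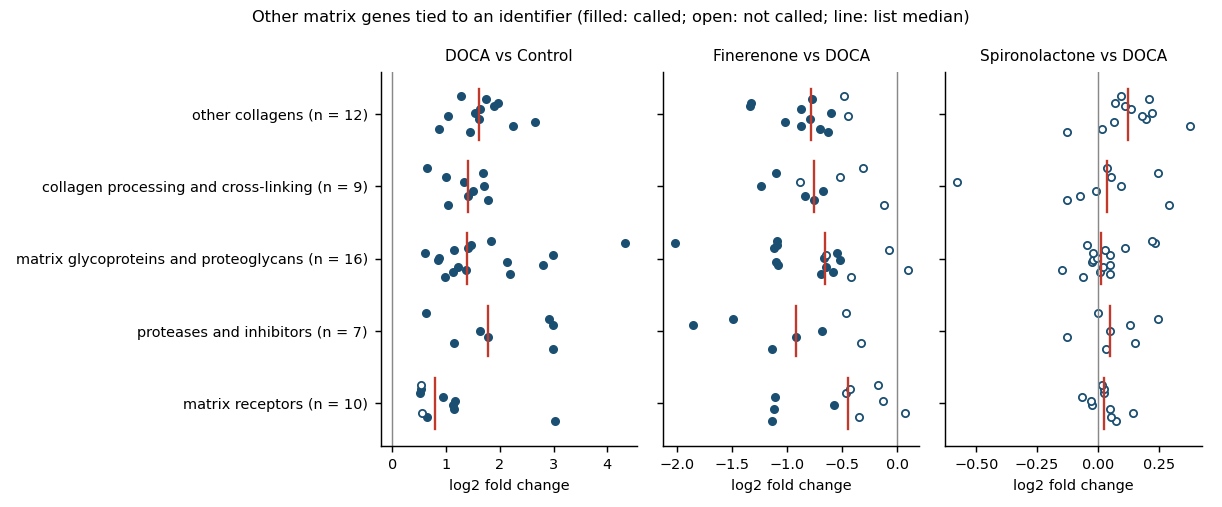
Log2 fold change (horizontal axis) of the 54 other matrix genes tied to an identifier, by list, in DOCA against control, finerenone against DOCA and spironolactone against DOCA. Filled points were called, open points were not, and the vertical line marks each list's median. The medians run from 0.79 to 1.78 in the first panel, from -0.45 to -0.92 in the second and from 0.01 to 0.12 in the third.

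To find the genes with the most similar pattern, the log2 CPM profile of each of 12618 identifiers with a mean log2 CPM of at least 1 was standardised over the 16 libraries and set against the mean profile of the 7 genes, as the root mean square difference. The 8 nearest were Mgp (0.185), Fbn1 (0.198), Nlgn2 (0.199), ENSRNOG00000014714 (0.203), C1qc (0.207), Col6a1 (0.212), Rftn1 (0.213) and Timp1 (0.213), where the median over all 12618 was 1.38. Mgp, matrix Gla protein, was at 322 to 497 TPM in control and 2126 to 5615 TPM in DOCA. It was at 787 to 1194 TPM under finerenone and 2107 to 2903 TPM under spironolactone. Fbn1, the microfibril protein fibrillin, was at 1.91 to 2.52 TPM in control, 12.7 to 17.3 TPM in DOCA, 4.37 to 5.08 TPM under finerenone and 10.8 to 18.2 TPM under spironolactone. Members themselves lay at 0.144 (Col1a1), 0.164 (Col3a1), 0.189 (Lox), 0.203 (Fn1), 0.265 (Mmp2) and 0.335 (Sparc) from the mean that they make up, and ENSRNOG00000011292 lay at 0.659. Identifiers outside the 7 that lay nearer to that mean numbered 48 for Mmp2, 189 for Sparc and 1509 for ENSRNOG00000011292. They numbered 0 for Col1a1 and Col3a1, 1 for Lox and 3 for Fn1.

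All tied markers of fibroblast and mural cells, of macrophages and monocytes and of injured tubule were called higher in DOCA. Fewer of each were called lower under finerenone, and their part in the result was not tested. Of 10 fibroblast and mural cell markers, which share Dcn with the matrix lists, 8 were tied to an identifier, 8 were called higher in DOCA and 5 lower under finerenone. These names come from the same supporting table, of which 77.0% of the tied genes were called higher in DOCA and 37.3% lower under finerenone, against 15.4% and 7.70% of all tested genes. Their summed level was 166 to 239 TPM in control, 803 to 1617 TPM in DOCA, 391 to 441 TPM under finerenone and 861 to 901 TPM under spironolactone over all 16 libraries. Of 6 macrophage and monocyte markers 6 were tied, 6 rose and 5 fell. That sum was 242 to 403 TPM in control, 827 to 1399 TPM in DOCA, 513 to 579 TPM under finerenone and 925 to 996 TPM under spironolactone. Of 5 markers of injured tubule 5 were tied, 5 rose and 2 fell under finerenone, a share close to the 37.3% of all tied genes. Their sum was 248 to 478 TPM in control and 8033 to 20572 TPM in DOCA. It was 1422 to 3118 TPM under finerenone and 6332 to 15210 TPM under spironolactone. No tied marker was at 0 in any library. Of 5 endothelial markers 1 was tied, Cdh5. It was at 0.45 ± 0.11 in DOCA, under the minimum fold of 0.5, and was not called. In spironolactone against control Cdh5 was called higher, at 0.53. Of 16 podocyte, proximal and distal tubule markers 0 were tied, so no level of these cells is given here.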

How the data were processed

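Per the submitters' processing notes and the study's methods, the authors trimmed reads with Trim Galore 0.4.5, used STAR 2.7.3a on the rat genome (rn6, Rnor_6.0) for alignment and RSEM for gene levels. RNA was polyadenylated and libraries were made with the NEBNext Ultra kit, strand-specific per the methods. The annotation was not given in the sources used here. The deposited estimated counts were not scaled for depth, and 3.14% were fractional; they were rounded for testing. The deposited TPM, also from RSEM, correct for transcript length and library total.

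The 7 genes and all lists were chosen with earlier results of these data known. The filter kept genes that exceeded 4 counts in 3 or more libraries. Tests used edgeR 4.0.16 (R 4.3.3, robust quasi-likelihood F test, TMM, 1 fit of 4 groups, 14 libraries), after a test on simulated data. CPM used TMM factors of all 16 libraries. The SE of an edgeR log2 fold change was its absolute value divided by the square root of the F statistic. Intervals of 95% used 10 residual degrees of freedom. The F test also adds prior degrees of freedom, so intervals and p-values need not match exactly. For TPM ratios the test was an exact permutation test, 2-sided. Other named genes were, in each list, the 4 tied genes with the highest mean TPM, and the 8 identifiers nearest in pattern. The values of 1 gene that this rule selects are not reported here. Promoters were taken from a table of RefSeq sequences (GRCr8), in which 1 of the 6 tied genes was matched. Alternatives were RLE, upper quartile or no normalization, other filters, DESeq2 1.42.0, limma 3.58.1 (voom, and log2(TPM + 1) or log2(TPM + 0.1)), all 16 libraries, a replicate block, libraries of a shared first code number summed, and leaving out each library. Labels do not say what the code numbers mean or whether libraries were processed together; each first number occurs in 1 group only, so any such batch and the group cannot be told apart. P-values measure the spread between these libraries. Floors cover counting error only. Series files of the authors' metadata were not used.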

Additional observations from a re-analysis of the deposited data

Results flagged for a closer look

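In a test for a single library far from the other 3 of its group, applied to 32 sets, 2 were flagged, where chance gives about 1.6. Both were in DOCA replicate 4. Col1a1 was at 674 CPM there, with 0.931 of the group's range lying between it and the next library. Lox was at 68.8 CPM, with a gap of 0.904 of the range. This library is one of those left out of the main fit, and both genes were called in DOCA against control with and without it.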

How the results depend on the processing

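The 4 normalizations, 3 filters, other tools, all 16 libraries, the replicate block and each left-out library kept the direction of every member call in the 5 comparisons that had any. Summing libraries of a shared first code number, chosen as an alternative because the code may mark a shared source, left 2 of 7 genes called for finerenone against control and 3 of 7 for finerenone against spironolactone, and it uses fewer samples. Same-numbered libraries did not pair (4 of 19 pairs correlated over 0.1, range -0.0752 to 0.143). With the replicate block 7 of 7 genes were called in DOCA against control, 5 in finerenone against DOCA and 6 in finerenone against spironolactone, and ENSRNOG00000011292 was called in DOCA against control at 2.22.

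Sign changes were found for small differences between spironolactone and DOCA, none of them called. All log2 fold changes in this paragraph are for that comparison. With upper quartile scaling Mmp2 was at -0.0096. On library size alone Col3a1 was at -0.0071, Fn1 at -0.010 and Mmp2 at -0.037. With all 16 libraries Col3a1 was at -0.33, Fn1 at -0.29, Sparc at -0.088, Mmp2 at -0.26 and Lox at -0.36. With the replicate block Col3a1 was at -0.0018. With first code numbers summed Col3a1 was at -0.083, Fn1 at -0.093 and Mmp2 at -0.049. By limma-voom Fn1 was at -0.0056. By edgeR with both identifiers that share reads summed, ENSRNOG00000011292 was at 0.079. With DOCA replicate 4 added back Col3a1 was at -0.21, Fn1 at -0.29, Sparc at -0.020, Mmp2 at -0.21 and Lox at -0.21. Leaving out each library gave -0.206 to 0.0802 for Col1a1, -0.265 to 0.122 for ENSRNOG00000011292, -0.174 to 0.151 for Col3a1, -0.216 to 0.159 for Fn1, -0.131 to 0.198 for Mmp2 and -0.0064 to 0.223 for Lox. The cause was not tested.

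Leaving out each library also turned log2 ratio differences that had not passed the correction. Col1a1 over ENSRNOG00000011292 ran from -0.0266 to 1.04 for DOCA against control, -0.0507 to 0.785 for finerenone against DOCA, -0.181 to 0.213 for spironolactone against DOCA and -0.0962 to 0.740 for finerenone against spironolactone. Col3a1 over Col1a1 ran from -0.0043 to 0.107 for spironolactone against DOCA. Fn1 over Col1a1 ran from -0.0136 to 0.294 for DOCA against control, -0.0197 to 0.0997 for spironolactone against DOCA and -0.230 to 0.0768 for finerenone against control. Mmp2 over Col1a1 ran from -0.113 to 0.312 for spironolactone against DOCA.

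Over all genes, calls in DOCA against control were 3902, and 6089 or 6614 by limma on log2(TPM + 1) or log2(TPM + 0.1). For finerenone against DOCA they were 2011, and 3290 on library size alone, 1182 with code numbers summed, 4334 or 4557 on TPM and 3087 without a minimum fold. Finerenone against control gave 612 calls, 407 with all 16 libraries, 173 with code numbers summed and 349 to 847 without 1 library. Spironolactone against control gave 3604, and 5899 or 6410 on TPM. Finerenone against spironolactone gave 1672, 2640 on library size alone, 683 with code numbers summed, 4077 or 4364 on TPM and 1053 to 1825 without 1 library. Spironolactone against DOCA gave 0, 1 on log2(TPM + 1), 11 by DESeq2 and 0 to 2 without 1 library. Depth limits Lox most, at 18 to 46 counts per control library.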
